A study of Mus musculus with 4 samples.

Results

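The cells described here are the Pdgfra positive cells of the mouse cerebellum, taken as oligodendrocyte precursors and chosen by their UMIs (unique molecular identifiers, counts of captured RNA molecules). A barcode with at least 500 genes and at most 20% of its UMIs from mitochondrially encoded genes was a member if it held at least 1 UMI of Pdgfra and a UMI of at least 2 of Cspg4, Olig1, Olig2, Sox10 and C1ql1. It also had to hold 0 UMIs of Mog, Dcn, Col1a1 and C1qa, which mark myelinating oligodendrocytes, fibroblasts and microglia. These conditions selected 949 of 42576 cells. The 10 genes of the rule are therefore described below and not tested, and so is every other gene of the same cells.

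The study compared Eftud2 cKO mice with WT mice by droplet single-cell RNA sequencing, with 1 library each at postnatal day 10 (P10) and postnatal day 14 (P14). Its title places the deficiency in Purkinje cells, so the precursors are neighbours of the cells the study was about. The labels name no Cre line, deleted exon, sex, strain or number of pooled animals. Whole cerebellum freed of meninges was digested with trypsin and filtered into a cell suspension. With 1 library per group no difference between genotypes or ages could be tested against animals, and every interval below is a 95% interval that covers counting error only. A share or level can differ between 2 libraries through the genotype, the animal, the dissociation or the sequencing run, and these cannot be told apart.

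Oligodendrocyte precursors are dividing glia that carry PDGF receptor alpha, through which PDGF-AA made by neurons and astrocytes keeps them in cycle. They hold the transcription factors Olig1, Olig2 and Sox10, receive synapses from neurons, and either renew themselves or leave the cycle, pass through a committed stage marked by Gpr17, Bcas1 and Enpp6, and become myelinating oligodendrocytes. Eftud2 encodes a GTPase of the U5 snRNP, a core particle of the spliceosome in every cell type.

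Members numbered 365 at P10 in WT and 165 in cKO, and at P14 303 in WT and 116 in cKO. No member barcode occurred in more than 1 library. Members were deep cells, with a median at P10 of 11054 UMIs in WT and 19444 in cKO, and at P14 of 12849 and 21503.5. Both cKO libraries were thus deeper per member than both WT libraries, as they were over all cells, where the medians ran from 7838 to 12347 UMIs. The file headers name different Cell Ranger versions for the P10 libraries and the same one for both P14 libraries. In the P10 comparison of genotypes the median log2 ratio of members was 1.499 for genes spanning over 100 kb and -0.58 for genes under 10 kb. Between the P14 libraries the same medians were 0.02 and -0.02. The genotypes are therefore compared gene by gene at P14 only, and ages within cKO only. The P10 WT values are printed beside them for sight and lie on another scale for long genes.

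The label was checked against 16 precursor markers that the rule did not use, among them Ptprz1, Vcan, Cspg5, Lhfpl3, Tnr, Pcdh15 and Sox6. The members fell into 2 well separated sets. At least 12 of the 16 markers were present in 631 members and at most 5 in 262, with only 56 members in between. A limit of 8 markers, set after this gap was seen, put 673 members above it (251 and 91 for WT and cKO at P10, 249 and 82 at P14). The other 276 members, 29.1% of all (26.2 to 32.1%, exact binomial), lay below it. Only 5 members held exactly 7 markers and 8 held exactly 8. Members with at least 8 are called marker-rich and the others marker-poor.

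**Figure D1:**
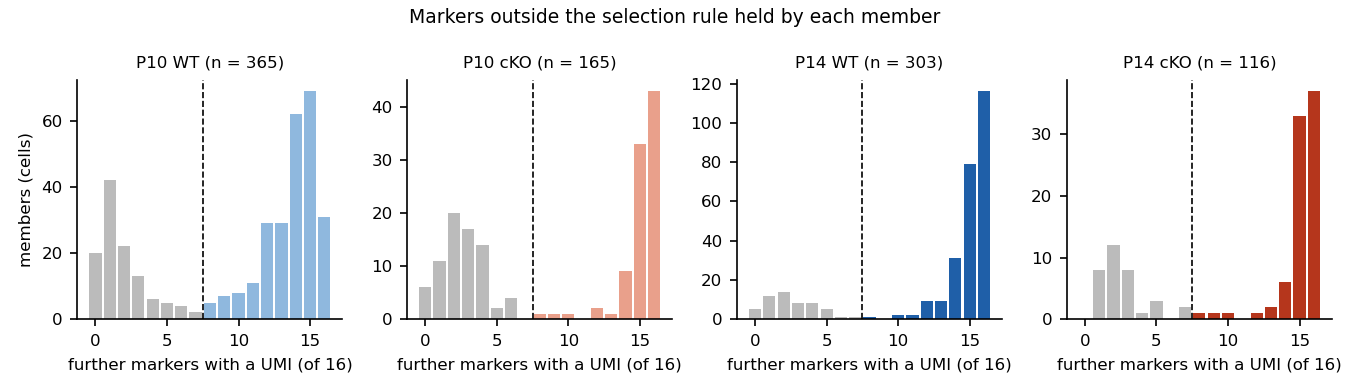
Number of the 16 precursor markers outside the selection rule (x axis) in each member (y axis, cells), by library. The dashed line is the limit of 8 markers. Grey bars are the marker-poor members, 114 and 74 for WT and cKO at P10 and 54 and 34 at P14, and few cells lie near the line.

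The marker-poor members went against the label. The share of members that were marker-poor was 31.2% (26.5 to 36.3%) in WT and 44.8% (37.1 to 52.8%) in cKO at P10. At P14 it was 17.8% (13.7 to 22.6%) and 29.3% (21.2 to 38.5%). The cKO share was thus higher at both ages, with overlapping intervals at P14. The cKO libraries were deeper, and the part of depth in these shares was not tested. Neurod1, a transcription factor of granule cells, had a UMI in 94.7%, 100%, 92.6% and 97.1% of the marker-poor members. Among marker-rich members it had a UMI in 42.2%, 44.0%, 36.1% and 45.1%. Values are in the order P10 WT, P10 cKO, P14 WT, P14 cKO, which is kept from here on. The median depth of the marker-poor members was 15667.5, 21053.5, 16956 and 20930 UMIs, and that of the marker-rich ones 9855, 18915, 12214 and 21898 UMIs. Atoh1, the factor of granule cell progenitors in the external granular layer, had a UMI in 37.7%, 39.2%, 42.6% and 47.1%, against 1.20%, 3.30%, 1.61% and 2.44% of marker-rich members. Olig2 was present in only 21.9%, 10.8%, 22.2% and 23.5% of the marker-poor members, and Sox10 in 25.4%, 17.6%, 5.56% and 17.6%. They are called by the rule only and given no other cell type name.

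C1ql1, a gene of the rule, encodes a secreted C1q-like protein that acts at synapses. It had a UMI in 95.6%, 100%, 96.3% and 100% of the marker-poor members. Its level was 207, 158, 182 and 155 CPM there (UMIs of the gene per 1000000 summed UMIs of the set of cells). In cells outside the members with a UMI of both Atoh1 and Mki67 it was 223, 179, 174 and 149 CPM. C1ql1 thus stood at a like level in cells that hold granule progenitor RNA, while marker-rich members had 1048, 739, 694 and 721 CPM. Pdgfra stood at 116, 84.4, 99.98 and 90.1 CPM in the marker-poor members against 707, 517, 552 and 589 CPM in the marker-rich ones.

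The edge of the rule showed the same division. Members with exactly 2 of the 5 supporting genes numbered 103, 70, 56 and 29, and only 6, 0, 4 and 1 of them were marker-rich. Members with 4 or 5 supporting genes numbered 240, 87, 234 and 80, and 98.3%, 100%, 99.6% and 98.8% of those were marker-rich. Just outside the rule, cells with Pdgfra but only 1 supporting gene numbered 797, 687, 765 and 224, of which only 4, 7, 11 and 0 held 8 markers. Cells with at least 2 supporting genes but no Pdgfra UMI numbered 256, 124, 290 and 119, and 36.3%, 35.5%, 45.2% and 37.8% of these held 8 markers. The rule therefore took in cells that lack the other precursor markers and missed cells that hold them.

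Members made up 2.56% (2.30 to 2.83%) of the WT and 2.50% (2.14 to 2.91%) of the cKO cells at P10. At P14 they made up 1.97% (1.75 to 2.20%) of the WT and 1.84% (1.52 to 2.20%) of the cKO cells. The ratio of the cKO to the WT share was 0.979 at P10 (0.810 to 1.18) and 0.934 at P14 (0.748 to 1.16), so both intervals include 1. Since the rule reads single UMIs, the share can move with depth and with stray UMIs of the excluded genes. With every cell thinned to 2000 UMIs, and shallower cells left out, it was 2.08%, 0.916%, 1.08% and 1.18%. The P10 ratio then fell to 0.441 (0.326 to 0.588), while the P14 ratio was 1.10 (0.811 to 1.48). Marker-rich members made up 1.76%, 1.38%, 1.62% and 1.30% of cells, with ratios of 0.785 at P10 (0.611 to 1.00) and 0.804 at P14 (0.618 to 1.04). At P14 the cKO share thus lay below the WT share for all members and marker-rich members and above it after thinning, each time within counting error. The P10 ratio moved by over 1.5 times with thinning. Cells that met the rule but for a UMI of an excluded gene numbered 457, 45, 39 and 73. Of these, 226, 22, 29 and 43 held 8 markers, beside 251, 91, 249 and 82 marker-rich members that were kept. The excluded genes thus removed the most cells in P10 WT, so the near-level P10 shares of members hold only under this exclusion. Thinning can also remove such UMIs. The parts of depth and of the excluded genes in the P10 ratios were not tested.

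**Figure D2:**
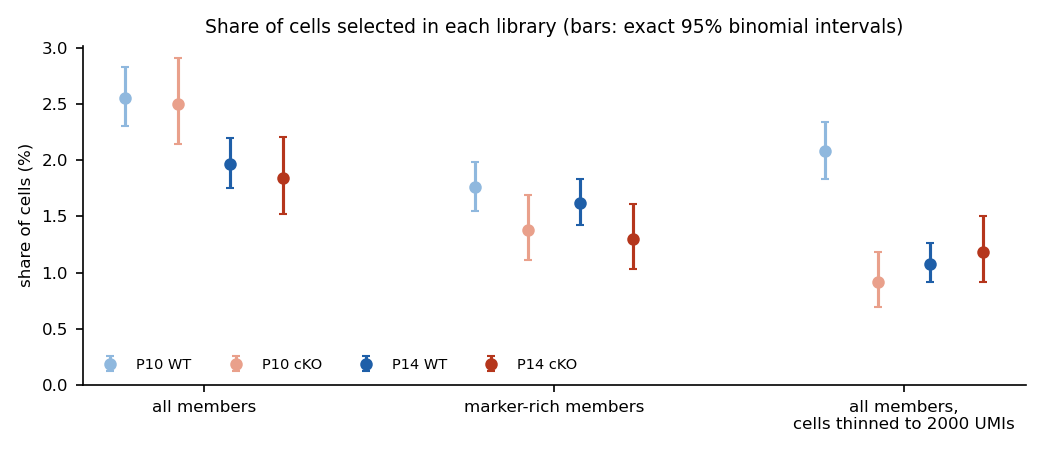
Share of cells (y axis, percent) that were members, marker-rich members, or members after every cell was thinned to 2000 UMIs, one point for each of the 4 libraries. Bars are exact 95% binomial intervals and cover counting error only. The P10 WT point lies above the P10 cKO point by the widest margin after thinning, 2.08% against 0.916%.

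Among the genes of the rule, Olig1, a transcription factor of the lineage, had a UMI in 98.4%, 98.9%, 98.4% and 98.8% of the marker-rich members. Cspg4, the NG2 proteoglycan, was present in 92.4%, 95.6%, 92.0% and 95.1%, and Olig2 in 93.6%, 93.4%, 92.8% and 98.8%. Sox10, which drives the lineage's genes together with Olig2, was present in 88.4%, 96.7%, 85.9% and 96.3%. Detection was somewhat higher in the deeper cKO libraries for Sox10. Pdgfra stood at 552 CPM for WT and 589 CPM for cKO at P14, a log2 ratio of 0.09 (-0.01 to 0.20). Olig2 was the rule gene with the lowest ratio in marker-rich members, 427 against 366 CPM or -0.22 (-0.35 to -0.09).

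Outside the rule, Ptprz1, a receptor phosphatase of glial precursors, stood at 2493, 2382, 2652 and 2736 CPM in the marker-rich members. It was at 906, 1015, 876 and 926 CPM in cells with Gpr17 but no Pdgfra and at 185, 135, 223 and 217 CPM in cells with Mog. Cspg5, a membrane proteoglycan also called neuroglycan C, stood at 1895, 1116, 1386 and 1119 CPM in the marker-rich members and at no more than 137 CPM in the Gpr17 cells. Both genes were highest in the marker-rich members of every library and lower in the later stages. Both are among the markers that define the marker-rich set, so their high level there follows in part from that choice. Over all members, chosen without these genes, Ptprz1 stood at 1415, 1118, 2116 and 2005 CPM. Cspg5 stood there at 1070.5, 524, 1107 and 819 CPM. These levels were also above those of the Gpr17 cells and the Mog cells in every library. Tnr, which encodes the matrix protein tenascin-R, did not follow this order: it stood at 1788 and 2377 CPM in the P14 marker-rich members and at 3814 and 4132 CPM in the P14 Gpr17 cells.

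The markers of later stages ran opposite to Ptprz1 and Cspg5. Bcas1 stood at 711 CPM in the WT and 873 CPM in the cKO marker-rich members at P14, against 3590 and 3049 CPM in the Gpr17 cells. Enpp6, a phosphodiesterase of newly formed oligodendrocytes, stood at 114 and 76.4 CPM in the P14 marker-rich members and at 1228 and 1157 CPM in the Gpr17 cells. Mbp, the myelin basic protein gene, reached 232 and 186 CPM in the P14 marker-rich members and 8006 and 8130 CPM in the Mog cells. Mki67, a marker of dividing cells, stood at 256 and 258 CPM in the P14 marker-rich members and at 16.9 and 5.34 CPM in the Gpr17 cells. Since the rules for these sets used several of these genes, the levels are a description.

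**Figure D3:**
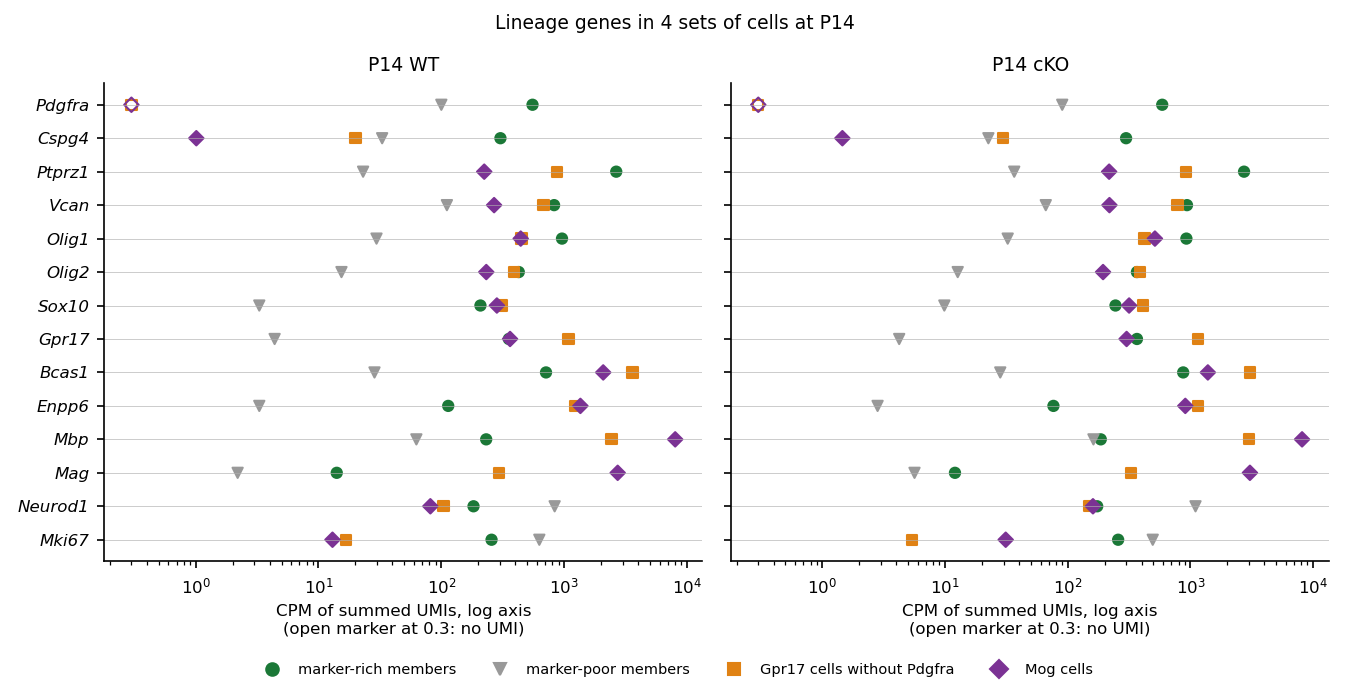
Level of 14 genes (x axis, CPM of summed UMIs, log axis) in 4 sets of cells at P14, with WT on the left and cKO on the right. Ptprz1 is highest in marker-rich members and Mbp in Mog cells. Ptprz1 is among the markers that define the marker-rich set. Neurod1 is highest in the marker-poor members, at 836 CPM in WT and 1100 CPM in cKO. Open symbols stand for no UMI.

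Some marker-rich members also held RNA of other cell types. A UMI of at least 50% of the genes of another type's marker list was present in 81, 25, 60 and 18 of the marker-rich members. At P14 the astroglia list was held so by 16 members of WT and 4 of cKO, and the granule neuron list by 45 and 13. Red blood cell genes were held so by 63 members of P10 WT and by at most 2 in any other library. Leaving out all such members kept 170, 66, 189 and 64 marker-rich members, called single-type members below.

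The knockout target was measurable in the precursors. Eftud2 stood at 55.8, 58.5, 65.0 and 49.7 CPM in marker-rich members, a P14 log2 ratio of -0.38 (-0.75 to -0.04) that was -0.55 in single-type members. Over all members the P14 ratio was -0.11 (-0.40 to 0.17). Its ratio in all non-member cells was -0.07. The counted reads are not restricted to a deleted exon, which the labels do not name, so this level does not check the deletion. The 8 genes of the U5 snRNP had a median log2 ratio of 0.08 in marker-rich members. Prpf8, the largest U5 protein, stood at 63.6 against 75.4 CPM, and the helicase Snrnp200 at 39.1 against 50.8 CPM.

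At P14, 12536 genes had at least 20 UMIs over the members of both libraries. Of these, 1.81% were over 2-fold higher in cKO and 1.95% over 2-fold lower. In marker-rich members 12019 genes passed, of which 1.57% were over 2-fold higher and 2.49% over 2-fold lower. The median log2 ratio of all genes was 0.01 in all members and -0.01 in marker-rich members. None of the 16 markers outside the rule was past 2-fold in either set. Over all members 12 of the 16 were lower in cKO with a median of -0.14. In marker-rich members 8 were higher and 8 lower with a median of -0.01. Marker-rich members were chosen by these same 16 markers, so their near-level values follow in part from that choice. The share of marker-poor members was 17.8% for WT and 29.3% for cKO at this age. Its part in the lower median of all members was not tested. Values below are from marker-rich members unless stated otherwise.

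Within the markers, Tnr stood at 1788 CPM for WT against 2377 CPM for cKO, a log2 ratio of 0.41 (0.36 to 0.47) and of 0.38 in single-type members. Cspg5 was lower in cKO, at 1386 against 1119 CPM or -0.31 (-0.38 to -0.24), and -0.44 in single-type members. These 2 matrix genes thus differed by more than counting error, in opposite directions. Lhfpl3 stood at 4766 against 5270 CPM, Pcdh15 at 1984 against 2052 CPM, and Luzp2 at 1551 against 1408 CPM.

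Among 25 transcription factors of the lineage, 24 passed, with 6 higher and 18 lower in cKO and a median of -0.12. Sox6, which holds precursors back from differentiation, stood at 1446 against 1552 CPM. Sox11, a factor of immature neurons and glia, stood at 356 against 297 CPM, but its log2 ratio of -0.26 was 0.08 in single-type members. The nuclear factors Nfia and Nfib likewise had ratios of -0.13 and -0.20, and of 0.12 and 0.11 in single-type members. The direction of these 3 genes thus differed between marker-rich and single-type members, and the cause was not tested. Tcf4, the partner of Olig2 in differentiation, stood at 1736 against 1640 CPM.

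In the PDGF system the ligand gene Pdgfa stood at 82.4, 45.7, 41.1 and 33.0 CPM across the 4 libraries. Its P14 log2 ratio was -0.31 (-0.77 to 0.12), within counting error. Of the other growth factor receptors, Erbb4, the neuregulin receptor, stood at 2199 against 2386 CPM. Ntrk2, the BDNF receptor, stood at 351 against 304 CPM, a ratio of -0.21 (-0.36 to -0.07). Of 19 receptors that passed, 3 were higher and 16 lower with a median of -0.21. Igf1r stood at 184 against 179 CPM, the 2 libraries being nearly level.

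Genes that respond to receptor tyrosine kinases were read as a list of 12, of which 9 were higher and 3 lower with a median of 0.17. Egr1, an immediate early transcription factor, stood at 217, 211, 378 and 520 CPM, highest in P14 cKO, with a P14 ratio of 0.46 (0.34 to 0.58). Spred2, an inhibitor of the Ras pathway, stood at 77.1 against 102 CPM or 0.40 (0.13 to 0.67). The D-type cyclin gene Ccnd1 was level, at 388 against 397 CPM. Spry1, a feedback inhibitor, stood at 74.1 against 71.2 CPM. Egr1 also belongs to the immediate early genes, of which Jun was lower in cKO, at 560 against 431 CPM or -0.38, and Fos stood at 411 against 378 CPM. The list of immediate early genes thus held both signs, with 8 higher and 7 lower of 15 that passed.

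Receptors for glutamate and GABA let precursors sense neurons. Of 23 that passed, 9 were higher and 14 lower, with a median of -0.09. Gria2, the AMPA receptor subunit that limits calcium entry, stood at 675 CPM in WT and 769 CPM in cKO or 0.19 (0.09 to 0.28). The kainate receptor gene Grik2 stood at 914 against 784 CPM or -0.22 (-0.31 to -0.13). Gria4 stood at 1450 against 1392 CPM and Grm5 at 914 against 962 CPM. Gria1 was past 2-fold, with a log2 ratio of -2.21, and -1.08 in single-type members. Of 16 potassium and sodium channel genes, 11 were higher and 5 lower with a median of 0.13. Kcnd2, the channel of the A-type current, stood at 2357 against 2253 CPM.

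Of the synapse organisers, 7 were higher and 5 lower, with a median of 0.03 and none past 2-fold. Nlgn1, a postsynaptic adhesion protein gene, stood at 2980 against 3108 CPM and Adgrb3, the receptor of C1q-like proteins, at 2130 against 2121 CPM. Nrxn3 was the most different of the abundant ones, at 1549 against 1858 CPM or 0.26 (0.20 to 0.32). Of 18 matrix and adhesion genes that passed, 10 were higher and 8 lower with a median of 0.02.

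Commitment and myelin were next. Of 14 genes of committed oligodendrocytes, 5 were higher and 9 lower, with a median of -0.03. Gpr17, the receptor that marks commitment, stood at 354 CPM for WT against 366 CPM for cKO. Bcas1 was higher in cKO by 0.30 (0.21 to 0.39). Frmd4a, a scaffold protein gene, stood at 746 against 317 CPM or -1.23, but 818 of its 2648 WT UMIs came from 1 cell. Of 12 myelin genes that passed, 5 were higher and 7 lower with a median of -0.17. Mbp stood at 232 against 186 CPM or -0.32 (-0.50 to -0.14), while the marker-poor members had 62.6 against 162 CPM. In marker-rich P14 WT members 2305 of the 4697 UMIs of the myelin list came from 5 cells. The summed level of the list was 1322.5 CPM for WT against 1146 CPM for cKO. Without the 5 highest cells of each library it was nearly level, at 706 against 714 CPM. Outside the members all 15 myelin genes were higher in P14 cKO, with a median of 1.91. The myelin median over all members, -0.12, changed sign in 6 alternative settings, up to 0.41, so no direction is read from it.

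Read cell by cell after thinning to 2000 UMIs, Gpr17 had a UMI in 46.5%, 42.9%, 36.4% and 51.2% of marker-rich members. In microglia, which should lack it, it was present in 2.19%, 0%, 0.897% and 2.66% of cells, whose median depth before thinning was 7513, 11285, 8866 and 16257.5 UMIs. The 0 of 326 thinned P10 cKO microglia allow a share of up to 0.920%, taken as 3 counts of the total. Gpr17 was therefore read above background in every library, and its P14 intervals, 30.4 to 42.8% in WT and 39.9 to 62.4% in cKO, overlap.

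**Figure D4:**
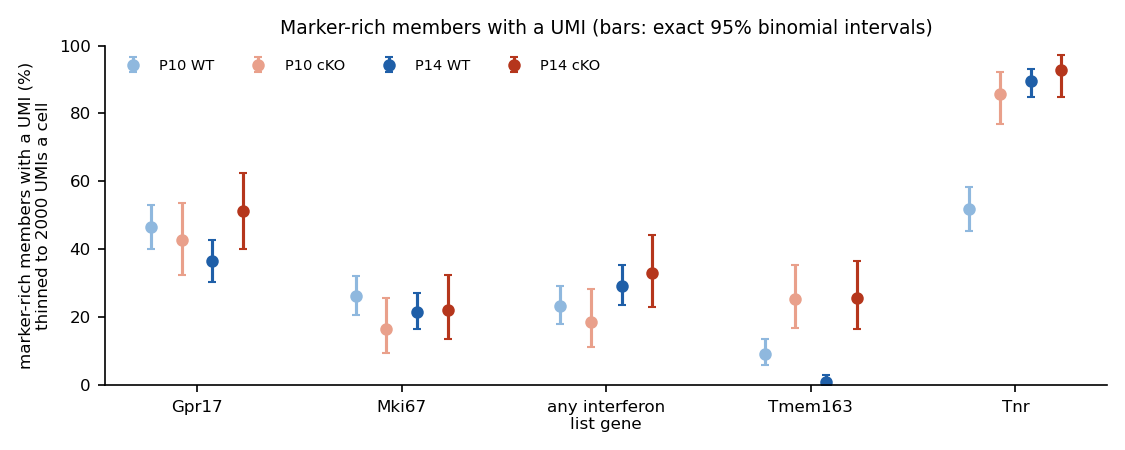
Share of marker-rich members with a UMI of a gene or list (y axis, percent) after thinning to 2000 UMIs a cell, for each of the 4 libraries. Bars are exact 95% binomial intervals. At P14 Tmem163 lies at 0.810% for WT against 25.6% for cKO, and Gpr17 between 36.4% and 51.2%.

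Division was read from Mki67 and Top2a. Marker-rich members with a UMI of both numbered 75, 26, 63 and 23, and those with neither 111, 51, 147 and 37. The cells with both were the deeper ones, with medians of 13535, 27434.5, 17074 and 28041 UMIs against 9315, 16169, 11322 and 20798. Gpr17 stood at 247, 149, 268 and 216 CPM in the cells with both and at 553, 572, 430 and 547 CPM in those with neither. Bcas1 stood at 251, 321, 467 and 494 CPM against 629, 846, 892 and 1459 CPM, and C1ql1 at 729, 487, 461 and 498 CPM against 1335, 886, 856 and 780 CPM. Olig1 stood at 1070, 668, 853 and 747 CPM against 1663, 880, 1015 and 966 CPM. These 4 genes were lower in the dividing set of every library. Neurod1 stood at 239, 198, 178 and 161 CPM there against 120, 70.5, 169 and 48.8 CPM. It was thus higher in the dividing set except in P14 WT, where the intervals, 155 to 204 and 150 to 189 CPM, overlap. The part of granule cell RNA in these differences was not tested. Pdgfra differed less, at 652, 456, 557 and 590 CPM against 736, 548, 562 and 589 CPM.

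After thinning, Mki67 had a UMI in 26.1%, 16.5%, 21.5% and 22.0% of marker-rich members, against 12.7%, 7.67%, 6.41% and 5.18% of microglia. At P14 the genotypes were nearly level. Of 20 genes of the G2 and M phases, 11 were higher and 9 lower in P14 cKO with a median of 0.02. Of 20 genes of the S phase, 2 were higher and 18 lower with a median of -0.24, none past 2-fold. Dut, which clears dUTP, stood at 116 against 85.8 CPM or -0.44 (-0.71 to -0.17), while Pcna, the replication clamp, stood at 99.4 against 97.9 CPM. In all other cells the S phase median was -0.60. Over all members, which include the marker-poor ones, the S phase median was 0.01, and the cyclin gene Ccnd2 changed sign, from -0.50 in marker-rich members to 0.27.

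Cholesterol synthesis supplies membrane to the lineage before and during myelination. Of 20 genes of this list, all of which passed, 3 were higher and 17 lower in P14 cKO, with a median of -0.35 and none past 2-fold. The median was -0.39 over all members and -0.42 in single-type members. The summed level of the list was 1823 CPM in WT and 1456 CPM in cKO. Without the 5 highest cells of each library it was 1762 against 1338 CPM, and after thinning 1868 against 1470 CPM. Outside the members, a mix of cell types, 14 of the 20 genes were higher and the median was 0.20. That sign was opposite to the precursors' sign, a difference that was not tested. After thinning, 93.9% of WT and 86.6% of cKO marker-rich members held a UMI of any list gene at P14. The shares were 94.1% and 79.4% in marker-poor members, 82.3% and 74.1% in granule cells and 48.7% and 49.4% in microglia. The lower level was thus not shown to be particular to the precursors.

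Hmgcs1, the synthase that makes HMG-CoA, stood at 370, 249, 269 and 198 CPM, with a P14 log2 ratio of -0.44 (-0.62 to -0.27). Idi1, an isomerase of isoprenoid units, stood at 133 against 94.7 CPM or -0.49 (-0.75 to -0.24). The intervals of both genes lie below 0. Msmo1 stood at 191 against 144 CPM and Fdps at 139 against 112 CPM. Cyp51 had the smallest difference of the genes named here, 171 against 150 CPM or -0.19 (-0.40 to 0.02).

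The promoter of Hmgcs1, the most abundant gene of the list, is shown because the list moved together and the SREBP factors that drive it read a sterol regulatory element. The sequence is from RefSeq (GRCm38.p6), chr13:119690101-119690400 on the + strand, and runs from 250 bases before the start to 50 after it. Capitals mark a match to TCACNCCAC, searched on both strands, at -137.
Hmgcs1: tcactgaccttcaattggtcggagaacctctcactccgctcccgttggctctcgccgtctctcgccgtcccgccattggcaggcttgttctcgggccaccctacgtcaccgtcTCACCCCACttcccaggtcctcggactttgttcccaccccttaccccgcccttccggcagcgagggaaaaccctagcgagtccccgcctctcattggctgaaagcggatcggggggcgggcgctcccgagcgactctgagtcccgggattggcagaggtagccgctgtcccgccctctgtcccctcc
These letters occurred in 330 of 27025 promoters of this length (1.22%) and in 1 of the 14 list genes with a promoter in the table (7.14%). The match is a description and not a site.

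Interferon response genes were next. Of the 28 genes of this list in the files, 13 reached 20 UMIs. Of those, 11 were higher and 2 lower in P14 cKO, with 7 past 2-fold, against 1.57% of all genes. A gene that passed only through the library where it was high had to differ, so neither this count nor the median of 1.20 is support for the list as a whole. Over all members the median was 1.12, and 0.048 after thinning, when 2 genes passed. The summed level over all 28 genes, which needs no filter, was 155 CPM in WT and 301 CPM in cKO. Without the 5 highest cells of each library it was 135 against 216 CPM, and after thinning 190 against 268 CPM. The non-members had 373 against 735 CPM.

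Ifi27, an interferon-induced membrane protein gene, stood at 31.5 against 44.0 CPM or 0.48 (0.05 to 0.90). Ifitm3, which blocks entry of viruses into cells, stood at 15.7, 2.23, 4.50 and 23.6 CPM, with UMIs in 10 members of each P14 library. In cKO 15 of its 45 UMIs came from 1 cell. Not every member of the list was higher. Stat2, a transcription factor of the type I interferon response, was lower in cKO at 16.6 against 8.90 CPM, a ratio of -0.87 (-1.77 to -0.10) that was 0.02 in single-type members. Ifit2 stood at 23.1 against 21.5 CPM.

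Bst2, a membrane protein that tethers virus particles and was chosen for mention after its values were seen, had UMIs in 5 members of P14 WT and 11 of P14 cKO. Rsad2, also among the 10 highest ranked genes, had 17 of its 21 UMIs of P14 cKO in 1 cell. A UMI of any interferon gene was present in 69.1% of P14 WT and 90.2% of P14 cKO marker-rich members. After thinning these shares were 29.1% (23.6 to 35.2%) and 32.9% (22.9 to 44.2%), against 16.1% and 19.0% of granule cells and 82.6% and 85.7% of microglia. The thinned shares of the precursors overlap, so no difference in the share of responding cells was detectable at this depth.

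The promoters of 3 interferon genes are shown: Bst2 and Ifitm3, which stood higher in cKO, and Stat2, which stood lower. They are from RefSeq (GRCm38.p6) at chr8:71537423-71537722 on the - strand, chr7:141010695-141010994 on the - strand and chr10:128270248-128270547 on the + strand. Capitals mark matches to GAAA followed after any 2 bases by GAAA, the core of the interferon-stimulated response element, on either strand. Bst2 holds 2 overlapping matches from -130, Ifitm3 holds 2 from 2 after the start, and Stat2 holds 1 at -222 on the opposite strand.
Bst2: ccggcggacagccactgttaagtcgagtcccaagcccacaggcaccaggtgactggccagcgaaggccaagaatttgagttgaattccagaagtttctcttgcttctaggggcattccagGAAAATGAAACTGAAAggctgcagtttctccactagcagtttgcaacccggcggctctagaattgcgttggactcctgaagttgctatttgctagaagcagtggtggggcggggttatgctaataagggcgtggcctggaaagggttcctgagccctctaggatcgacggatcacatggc
Ifitm3: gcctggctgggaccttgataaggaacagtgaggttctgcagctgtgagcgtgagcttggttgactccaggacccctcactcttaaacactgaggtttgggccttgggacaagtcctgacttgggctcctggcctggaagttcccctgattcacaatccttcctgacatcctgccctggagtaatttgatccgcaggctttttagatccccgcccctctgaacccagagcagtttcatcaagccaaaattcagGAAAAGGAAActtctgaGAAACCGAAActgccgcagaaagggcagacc
Stat2: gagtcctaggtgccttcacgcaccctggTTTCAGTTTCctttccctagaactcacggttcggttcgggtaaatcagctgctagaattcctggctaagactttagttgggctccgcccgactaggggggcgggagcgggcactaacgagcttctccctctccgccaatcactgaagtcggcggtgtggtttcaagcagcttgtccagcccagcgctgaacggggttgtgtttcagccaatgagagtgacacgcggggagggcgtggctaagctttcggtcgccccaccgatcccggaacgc
These letters occurred in 943 of 27025 promoters (3.49%) and in 13 of the 22 interferon genes with a promoter in the table (59.1%). Of the 3 genes shown, Stat2 held the letters as well as Bst2 and Ifitm3. Stat2 was lower in marker-rich members but nearly level in single-type members. A link between the letters and the direction was not tested.

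MHC class I presentation was read beside the interferon genes. Of 10 genes 8 passed, with 6 higher and 2 lower, 3 past 2-fold against 1.57% of all genes, and a median of 0.38. Here too a gene that passed only through the library where it was high had to differ. The median over all members, 0.25, turned to -0.13 without members with a Gpr17 UMI, to -0.21 without those with 3 granule neuron markers and to -0.11 after thinning. Only 3, 5 and 2 genes passed in these settings, and the first left out most marker-rich members. H2-K1, a class I heavy chain, stood at 27.7, 8.92, 9.29 and 24.6 CPM, a P14 ratio of 1.40 (0.73 to 2.09). H2-D1 stood at 44.2 against 65.4 CPM or 0.57 (0.22 to 0.91), and B2m, the shared light chain, at 70.1 against 77.5 CPM. In all other cells the median was 0.85. The summed level of all 11 microglial genes in the precursors was 32.4 CPM for WT against 84.3 CPM for cKO, and 34.0 against 82.8 CPM in single-type members. C1qa, the fourth gene excluded by the rule, was at 0 in every member by construction. The part of microglial RNA in the interferon and class I values was not tested.

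**Figure D5:**
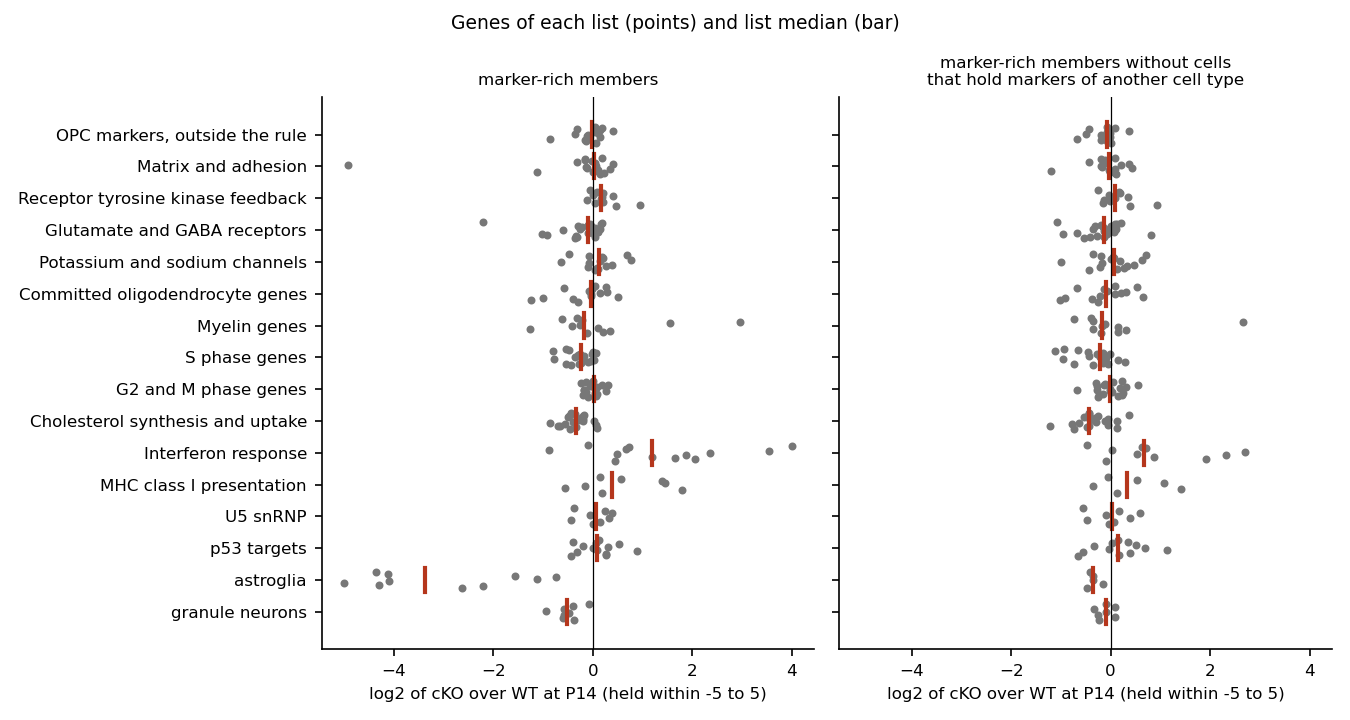
Log2 ratio of P14 cKO over P14 WT (x axis) of the genes of each list with at least 20 UMIs (points) and the median of the list (red bar), in marker-rich members on the left and in single-type members on the right. Cholesterol synthesis has a median of -0.35 on the left and -0.42 on the right, and interferon response 1.20 and 0.67. The astroglia list has -3.36 on the left and -0.35 on the right.

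Tmem163, which encodes a zinc transporter, had a UMI in more P14 cKO members than any other of the 10 genes ranked highest. It stood at 21.5, 79.1, 15.5 and 141 CPM over all members, and its P14 log2 ratio was 3.18 (2.81 to 3.58), or 2.86 in single-type members. A UMI was present in 80 of 251, 79 of 91, 15 of 249 and 65 of 82 marker-rich members. After thinning the shares were 9.13%, 25.3%, 0.810% and 25.6%, against 0.809%, 1.53%, 0.897% and 4.29% of microglia. In P14 WT the share was at the level of microglia, and 38 of the 69 UMIs of Tmem163 there came from 1 cell. Granule cells had 2.63%, 21.6%, 8.06% and 16.9%, and in all other cells the P14 level was 41.5 CPM for WT against 102 CPM for cKO, so the difference was not shown to belong to the precursors.

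Most other genes ranked highest rested on 1 cell. Cd86, a costimulatory receptor of immune cells, had 41 UMIs in P14 cKO members, 37 of them in 1 cell, and 0 in WT, which puts it at least 23.3-fold higher in cKO. Acod1 had 21 UMIs in 1 cell and was at least 11.9-fold higher, Oasl1 had 16 of 20 in 1 cell, and Il1a 28 of 29. Inpp5d, Mir142hg and Runx1 had 19 of 26, 18 of 21 and 22 of 25 in 1 cell. These are genes of immune cells, and 250 of the 282 UMIs of the leukocyte list in marker-rich P14 cKO members came from 1 cell. Mobp, a myelin protein gene, differed, with 35 UMIs in 24 marker-rich members of P14 cKO against 8 UMIs in 8 members of P14 WT. Among non-members Mobp stood at 129 against 647 CPM.

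Several of the genes ranked lowest are known from astroglia. Tnc, the matrix protein tenascin-C, had 84 UMIs in WT members and 1 in cKO. Sdc4, Slc39a12 and Gjb6 had 47, 44 and 31 UMIs in WT and 0 in cKO, at least 9.20-fold, 8.61-fold and 6.07-fold lower. Apoe stood at 598 against 144 CPM, and 870 of its 2588 marker-rich WT UMIs came from 1 cell. The astroglia list as a whole had all 10 of its genes lower, with a median of -3.36 and a sum of 1029 against 358 CPM, or 574 against 323 CPM without the 5 highest cells. In single-type members only 5 of its genes passed and their median was -0.35. Apoe there had a ratio of -0.34 and Tnc -0.48. Gria1 stayed past 2-fold there, at -1.08. The single-type set leaves out members with RNA of any other type, 60 in WT and 18 in cKO, so the part of astroglial RNA alone was not tested. Choroid plexus RNA also differed, at 188 CPM in P14 WT against 11.0 CPM in P14 cKO, with a UMI of its list in 82.7% against 23.2% of marker-rich members.

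Between P10 and P14 within cKO, 12372 genes passed over all members, of which 3.35% were over 2-fold higher at P14 and 3.16% over 2-fold lower. In marker-rich members the shares were 2.22% and 2.33% of 11327 genes, and the median of all genes was -0.06. The P10 cKO library differed from the other 3 in sex-linked genes: its marker-rich members held 0 UMIs of Xist and 115 of Ddx3y, against 1720 and 0 in P14 cKO. Age and sex of the animals therefore cannot be told apart in this comparison. These libraries were processed by versions 7.0.1 and 7.1.0 of Cell Ranger, and the median ratio over all members was 0.01 for genes over 100 kb and 0.03 for genes under 10 kb. Of the 16 markers 12 were higher at P14 with a median of 0.18. Tnr stood at 1487 CPM at P10 and 2377 CPM at P14, a ratio of 0.68, and Ptprz1 at 2382 and 2736 CPM, a ratio of 0.20.

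Genes of the later lineage were higher at P14 in the summed UMIs, in part through a few cells. Of 14 committed genes 12 were higher with a median of 0.36, among them Fyn, a kinase of process outgrowth, at 510 against 743 CPM and Bcas1 at 597 against 873 CPM. Gpr17 was level, at 350 and 366 CPM. The summed level of the committed list was 3121 CPM at P10 and 4048 CPM at P14. Without the 5 highest cells of each library it was nearly level, at 2573 and 2618 CPM. All 11 myelin genes that passed were higher, with a median of 0.59 and 5 past 2-fold, against 2.22% of all genes. Genes low at P10 could pass only through P14. The summed level of the myelin list was 579 and 1146 CPM, and 513 and 714 CPM without the 5 highest cells of each library. Mbp went from 55.2 to 186 CPM, a ratio of 1.75, and Cnp, a myelin enzyme gene, from 161 to 241 CPM or 0.59. Among non-members of the same libraries the myelin median was 1.36, and Mbp in the marker-poor members stood at 91.3 CPM at P10 and 162 CPM at P14.

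S phase and Sonic hedgehog genes were lower at P14 in the summed UMIs. All 20 S phase genes were lower with a median of -0.52, Slbp for example at 75.3 against 52.3 CPM and Rrm2, a subunit of ribonucleotide reductase, at 61.9 against 45.0 CPM. The G2 and M phase genes had a median of -0.10, which was 0.35 in single-type members. After thinning, the summed S phase level was 731 CPM at P10 and 744 CPM at P14, that of the G2 and M phases 1390 and 1799 CPM, and Mki67 had a UMI in 16.5% and 22.0% of members. No direction for division between the ages therefore held across these measures. Of 9 hedgehog genes that passed, 8 were lower with a median of -0.70, with the receptor Smo at 29.0 against 15.2 CPM. Cholesterol genes were lower in 14 of 20 with a median of -0.25.

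Immediate early genes were higher at P14 in 13 of 14 that passed, with a median of 0.97 and 7 past 2-fold, against 2.22% of all genes. Fos stood at 182 and 378 CPM, Egr1 at 211 and 520 CPM and Klf6 at 52.4 and 120 CPM. In all other cells their median was 1.15. Interferon genes were higher in 10 of 12 with a median of 1.30, against 1.23 in all other cells, and all 6 class I genes that passed were higher with a median of 0.94. The precursors thus shared the direction of the other cells of the same 2 libraries in both lists.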

How the data were processed

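Single-cell suspensions of whole cerebellum were sequenced on the 10x Genomics platform, 1 library per genotype and age. The deposited matrices hold raw UMI counts per gene and barcode, made by the authors with Cell Ranger. Per the file headers its version was 5.0.0 for WT and 7.0.1 for cKO at P10, and 7.1.0 at P14. Seurat 4.1.3, mm10 and Cell Ranger 3.0.2 are named in the submitters' processing notes. Whether introns were counted is not given in the sources used here. Libraries held 6719 to 16691 barcodes, 46528 in all, and 6308 to 15395 passed the filters. Every column of values was used. Of 32285 gene IDs, 32158 matched the reference annotation (GENCODE vM21).

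Members were taken by the rule and their UMIs summed per library, scaled to CPM (UMIs per 1000000). Log2 ratios had 0.5 UMI added and were read for genes with at least 20 UMIs over both libraries. Their 95% intervals, and those of shares (exact binomial, Clopper-Pearson), cover counting error only. No test was made, because each group has 1 library. A fold against 0 UMIs is a bound against a floor of 3 UMIs in the library at 0. The code was tested on simulated data. Doublets were scored with Scrublet in Scanpy 1.11.5. Members with a score above 0.22 (13, 13, 25 and 5) were kept and left out in an alternative. Granule cells, as a comparison, held a UMI of at least 2 of Cbln3, Gabra6 and Rbfox3 and none of Mki67. Microglia held at least 3 of C1qb, C1qc, Cx3cr1, Csf1r, P2ry12 and Tmem119. Python 3.11.15, NumPy 2.4.6, SciPy 1.17.1, pandas 2.3.3 and matplotlib 3.10.9 were used.

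Genes were named by a rule: the genes of the selection and Eftud2, the 6 members of each of 39 lists with the most UMIs, and the 10 highest and 10 lowest P14 genes by the interval bound nearest to 0, without mitochondrial, ribosomal protein, haemoglobin and sex-chromosome marker genes and markers of other cell types. Gria1 and Apoe were among the lowest and Bst2 stands outside the rule. Neu4 and Scrg1 were named for their values. The members, lists and rule were chosen with earlier results of these data known. Alternatives changed depth, cell filters, doublets, the rule, the weight of cells, pseudocount, low-value filter and scaling. Some genes are not reported here.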

Additional observations from a re-analysis of the deposited data

Results flagged for a closer look

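The median log2 ratio of cKO over WT for the list of microglia and macrophage genes in all members was -2.57 at P10 and 1.57 at P14. That for red blood cell genes was -8.38 at P10 and 0.90 at P14. Each list thus had opposite signs at the 2 ages, with 1 library per group, and the difference between the ages was not tested. P10 WT stood apart in both: 63 of its 251 marker-rich members held at least 50% of the red blood cell genes, against at most 2 in any other library.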

How the results depend on the processing

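Of the values that answer a comparison, 140 stayed within their interval under the alternatives (counts of genes within 1.5 times), 24 moved out of it and 1 reversed. For a list median the interval runs between the medians of its genes' bounds. It is not an interval of the median itself, so staying within it does not show a stable median. The interferon median of 1.12, for example, counted as staying at 0.54 without called doublets. The cause was not tested. Some of the 140 changed sign: the myelin median, -0.12, was 0.34 without Gpr17 UMIs, 0.27 without granule neuron markers, 0.07 thinned, 0.32 with cells weighted alike and 0.03 without the highest member. The S phase median, 0.01, was -0.09 with 2 Pdgfra UMIs, -0.24 with 8 markers, -0.21 in single-type members and -0.05 without the highest member. G2 and M phase genes, -0.18, were at 0.02 with 8 markers. Granule neuron genes, 0.05, were at -0.04 with 2 Pdgfra UMIs and -0.09 in single-type members. The cholesterol median stayed below 0 in every setting. Without members that hold a Gpr17 UMI, the interferon median reversed to -0.15, class I was -0.13 and the precursor markers -1.12, with granule neuron genes at 0.21. Only 4 interferon and 3 class I genes passed there. At P14 a Gpr17 UMI was held by 220 of 249 WT and 79 of 82 cKO marker-rich members. Among marker-poor members it was held by 2 of 54 and 2 of 34, so this setting left out most marker-rich members. After thinning, interferon was 0.048, class I -0.11, the markers -0.29 and granule neuron genes 0.41, and fewer genes passed. With every cell weighted alike the markers were at -0.28 and granule neuron genes at 0.39. With at least 8 markers, a setting chosen after seeing the data, the markers were at -0.011 and granule neuron genes at -0.52. With at least 2 Pdgfra UMIs, committed genes were at 0.045 and myelin genes at 0.41. Without members that hold 3 granule neuron markers, the G2 and M phase median was 0.55, class I -0.21 and granule neuron genes -0.21. Without doublets granule neuron genes were at 0.27 and 155 genes were past 2-fold lower. With at least 50 UMIs, 70 genes were higher and 96 lower, in place of 227 and 244. Without the highest member of each gene, also added after seeing the data, 127 were higher. The P10 share ratio was 0.785 with 3 supporting genes or with 8 markers and 0.441 after thinning. No paired analysis was possible because each group has 1 library. Of 28 interferon genes, 13 reached 20 UMIs over both P14 libraries.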
